A study of Mus musculus with 12 samples.

Results

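Aminoacyl-tRNA synthetase genes and genes of the integrated stress response were followed in cardiac macrophages of the mouse through 30 days after a freezing injury of the heart. The members were chosen by gene symbol: every symbol of the form "letter-ars" or "letter-ars2", with Eprs, Farsa and Farsb added and Lars2 left out because its reads are ribosomal-like, together with Atf4, Ddit3, Trib3, Chac1, Sesn2, Asns, Psat1, Phgdh, Shmt2 and Mthfd2. This gave 43 of the 14460 genes of the table: 20 cytoplasmic synthetase genes, 16 mitochondrial synthetase genes, 3 stress response genes (Atf4, Ddit3, Sesn2) and 4 enzymes of amino acid and one-carbon metabolism (Asns, Psat1, Shmt2, Mthfd2). Trib3, Chac1 and Phgdh were not analysed here. All animals carried 1 copy of the Cx3cr1 knock-in that expresses GFP (Cx3cr1GFP/+) and were 2 to 3 months old. GFP-positive cells were sorted from hearts without surgery (day 0) and from hearts at 3, 7 and 30 days after cryoinjury, which served as a model of myocardial infarction. RNA sequencing was done on 3 libraries of each time, prepared from total RNA. The sort gate was Ly6c-low with CX3CR1-high at days 0, 7 and 30, whereas at day 3 it was Ly6c-high with CX3CR1-low, so that time and sort gate cannot be told apart in any comparison with day 3. The sources used here do not say whether hearts were pooled for a library.

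Library depth ran from 5828904 to 13199576 reads. The 10 macrophage and monocyte markers, among them Csf1r, Cd68 and Ly6c2, were detected in every group, and their summed level was 9553 to 20062 per library. The 10 fibroblast markers summed to 42.6 to 131 at day 0, 305 to 415 at day 3, 591 to 2318 at day 7 and 173 to 178 at day 30, and the second day 7 library held the 2318. The 9 cardiomyocyte markers summed to 84.5 to 394 at day 0, 11.3 to 17.1 at day 3, 85.2 to 213 at day 7 and 25.99 to 26.4 at day 30. The 4 neutrophil markers with a row (S100a8, S100a9, Mmp8 and Cxcr2) summed to 81.2 to 158 at day 3 and to at most 46.0 in the other groups. The neutrophil markers Ly6g, Camp, Ngp and Ltf had no row, so that the sum leaves them out. Markers of other cell types differed between times too. The 9 for T and NK cells summed to 26.1 to 187 at day 0 and 3.19 to 9.58 at day 3. For mast cells, 5 markers summed to 22.5 to 38.9 at day 0 and 0.575 to 0.794 at day 3. For endothelium, 7 markers summed to 16.1 to 190 at day 0, a range that spans the 29.3 to 31.7 of day 30. The share of reads from rRNA-like genes lay between 25.5% and 49.3%. The day 30 libraries were closely alike: their counts differed by 1.51 to 1.91 times the sampling noise, against 3.24 to 18.6 times in pairs of the other groups. The labels speak of independent biological replicates without saying what was independent, so that p-values measure only the spread between these libraries. Calls between day 30 and another time are therefore also given with the day 30 libraries counted as 1 sample, a sample then assumed to vary like those of the other groups.

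Each aminoacyl-tRNA synthetase joins 1 amino acid to its tRNAs, and its name begins with the letter of that amino acid (Rars for arginine, Kars for lysine). Cytoplasmic and mitochondrial protein synthesis use separate synthetases, apart from Gars and Kars, whose products serve both compartments. In the integrated stress response, kinases that sense uncharged tRNA, misfolded protein, heme shortage or double-stranded RNA phosphorylate the initiation factor eIF2, which lowers translation in general and raises that of the transcription factor ATF4. ATF4, with partners of the C/EBP family, activates genes for amino acid supply, Ddit3 (CHOP), Sesn2 and many cytoplasmic synthetases through the C/EBP-ATF response element.

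RefSeq promoter windows (GRCm38.p6), from 250 bases before to 50 bases after the gene start, were matched for 33 of the 43 members, 1 of them (Mars) by a synonym. The letters TGATGNAA, a form of the C/EBP-ATF response element, were searched on both strands. They occurred in 5 of 13 cytoplasmic synthetase genes with a window (38.5%), in Asns among the 4 enzymes, and in 0 of 13 mitochondrial synthetase genes and 0 of 3 stress response genes. Of all 27025 genes with a window, 4.51% held a match, and of all 32851 windows, 3.97%. The 8-letter form TTGCATCA, each match of which is also a match of the first form, occurred in 4 of the 13 cytoplasmic genes (30.8%). It occurred in 1.03% of all genes and in 0.895% of all windows. The 6 members with a match are shown because ATF4 is known to act on synthetase genes through such an element. Whether ATF4 acts at these matches was not tested. Each line is the gene's own strand, 5′ to 3′, and capitals mark the match. The stretches of Aars (chr8:111033712-111033771, plus strand), Tars (chr15:11399659-11399718, minus strand), Gars (chr6:55037941-55038000, plus strand) and Asns (chr6:7693210-7693269, minus strand) lie before the start, and those of Iars (chr13:49682125-49682154, plus strand) and Yars (chr4:129189898-129189927, plus strand) span it.
Aars: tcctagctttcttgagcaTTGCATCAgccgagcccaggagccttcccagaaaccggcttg
Tars: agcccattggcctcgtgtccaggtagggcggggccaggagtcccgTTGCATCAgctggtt
Gars: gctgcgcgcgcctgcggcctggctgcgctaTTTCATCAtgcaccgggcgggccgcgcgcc
Asns: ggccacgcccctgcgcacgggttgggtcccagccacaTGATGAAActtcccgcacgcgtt
Iars: gcactgtcagtaTTGCATCAcctccagacg
Yars: agctcagcTGATGCAAcccgacgggactag
Counted from the start base as 0, the shown match began at -112 in Aars, -30 in Gars, -23 in Asns, -15 in Tars, 3 in Yars and 7 in Iars.

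The members that changed went in both directions, and at days 3 and 7 a smaller share of the members than of all genes passed the test against day 0. Values are a normalised read count, called signal, and each gene with a mean signal of at least 1 was tested with limma on log2(signal + 1), on which scale every fold change below is given. Of the members, 42 passed this filter, and Asns, with a mean signal of 0.989, did not. At day 3, 6 members were higher and 3 lower than at day 0 at an adjusted p of 0.05, which is 21.4% of 42, against 44.2% of all 12879 genes tested (22.1% higher and 22.1% lower). At day 7, 3 were higher and 1 lower than at day 0 (9.52%, against 21.6% of all genes, 11.4% higher and 10.2% lower). At day 30, 1 was higher and 1 lower (4.76%, against 6.18% of all genes, 3.45% higher and 2.73% lower). All called members had groups that did not overlap. Groups without overlap were seen in 16 members at day 3 (38.1%, against 55.4% of all genes), 8 at day 7 (19.0%, against 32.2%) and 17 at day 30 (40.5%, against 40.8%). The share of members past the threshold was below that of all genes at days 3 and 7 and near it at day 30. At day 30, edgeR called 3 of 42 members, against 5.86% of all genes. These comparisons share the day 0 libraries. The median log2 fold change of the members against day 0 was -0.01 at day 3, -0.02 at day 7 and 0.01 at day 30, and that of all genes tested was -0.02, -0.02 and -0.005 (SE of a single member about 0.21). With reads scaled to the library total without mitochondrial and rRNA-like genes instead, 5 members were higher and 9 lower at day 3, beside 46.9% of all genes called. The median of all genes then moved to -0.27.

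**Figure D1:**
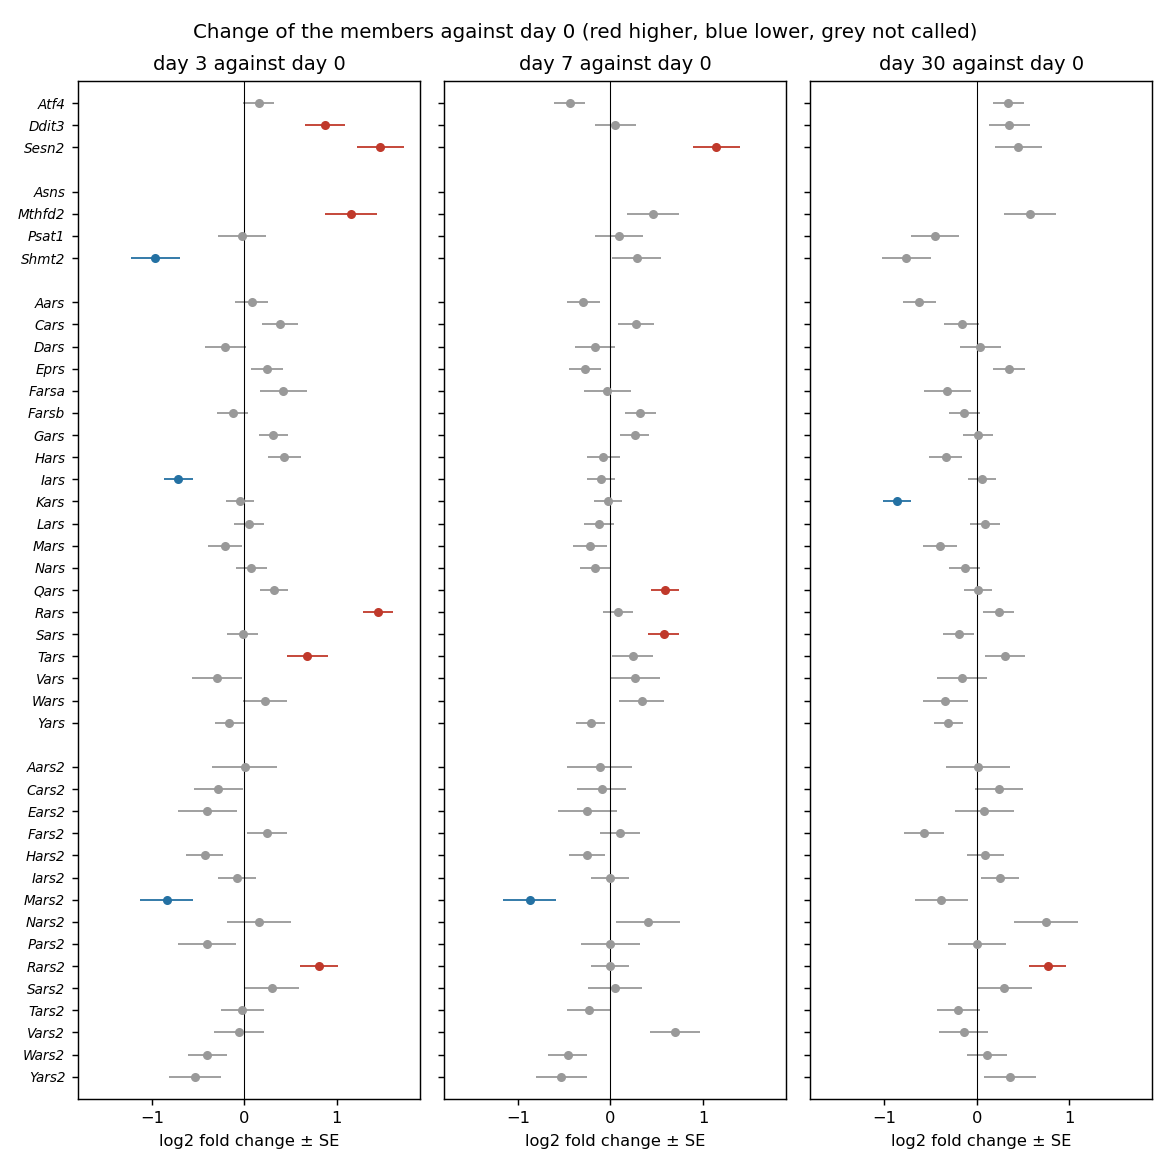
Log2 fold change (x axis, ± SE) of the members (y axis) at days 3, 7 and 30 against day 0, with 3 libraries per group. Red points are higher and blue points lower at an adjusted p of 0.05 by limma, grey points did not pass, and Asns was not tested; the coloured points are 9, 4 and 2 in number.

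Between the injured groups, 5 members were higher and 6 lower at day 7 than at day 3 (26.2% of 42, against 46.8% of all genes, 23.3% higher and 23.5% lower). Without the first day 3 library, 7 were called in all, beside 41.4% of all genes. Of the members, 5 were higher and 9 lower at day 30 than at day 7 (33.3%, against 39.6% of all genes, 19.7% higher and 19.9% lower). Groups without overlap were seen in 14 members between days 3 and 7 (33.3%, against 50.9% of all genes) and in 21 between days 7 and 30 (50%, against 55.3%). This last split fell to 8 members in all without the second day 7 library, to 7 or 8 without any 1 of the day 30 libraries, and to 0 with the day 30 libraries counted as 1 sample. The 4-group test called 18 of the 42 members, against 63.9% of all genes. Of those 18, 8 had their highest mean at day 3, 4 at day 7, 4 at day 30 and 2 at day 0. In all 5 comparisons together, 22 members were never called, among them Asns, which was not tested, and 1 member, Rars2, was called in 4.

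**Figure D2:**
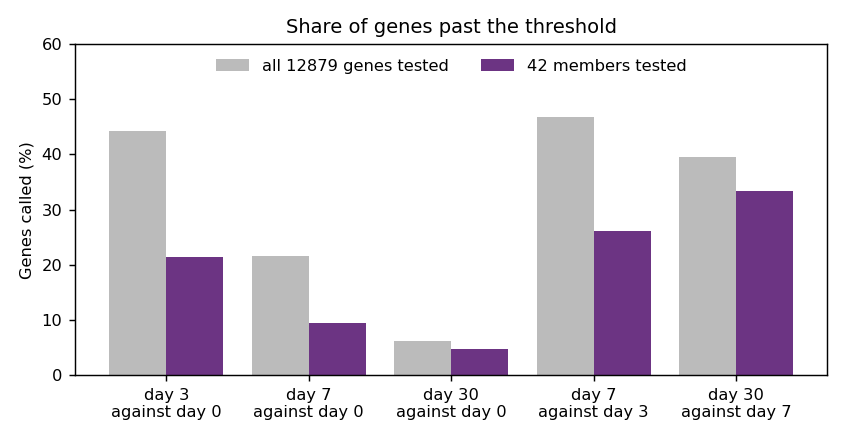
Percentage of genes called (y axis) in each of the 5 comparisons (x axis) at an adjusted p of 0.05 by limma, for all 12879 genes tested (grey) and for the 42 members tested (purple). The purple bar is lower than the grey bar in each comparison, from 21.4% against 44.2% at day 3 to 4.76% against 6.18% at day 30.

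Of the stress response genes, Sesn2 and Ddit3 rose at day 3, whereas Atf4 did not pass the test against day 0 at any time. Sesn2 (chr4:132492032-132510501, minus strand) encodes sestrin 2, a leucine-binding inhibitor of mTORC1. Its signal was 4.62, 4.19 and 3.98 in the day 0 libraries, 9.87, 15.5 and 16.3 at day 3, 10.1, 15.7 and 7.45 at day 7 and 5.69, 6.64 and 6.28 at day 30. All day 3, day 7 and day 30 values lay above all day 0 values. The rise was 2.77-fold at day 3 (log2 1.47 ± 0.25 SE, adjusted p = 0.000246 by limma). At day 7 it was 2.21-fold (1.15 ± 0.25, adjusted p = 0.00551), and both calls held under every alternative tried. At day 30 the log2 difference from day 0 was 0.45 ± 0.25 (adjusted p = 0.313), and that from day 7 was -0.69 ± 0.25 (adjusted p = 0.0418). The second day 7 library, with the highest fibroblast sum, also had the highest day 7 value of Sesn2; without it the day 7 rise was 0.88 on the log2 scale (adjusted p = 0.0186) and the fall to day 30 was no longer called (-0.43, adjusted p = 0.173). That fall also ended without the second day 0, the second day 3, the first day 7 or any 1 of the day 30 libraries, with adjusted p of 0.0113 to 0.297 over all alternatives, the highest with the day 30 libraries counted as 1 sample. In bulk samples, fewer cells of a type and less RNA per cell cannot be told apart.

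Ddit3 (chr10:127290774-127296288, plus strand) encodes CHOP, a transcription factor of prolonged stress. Its signal was 16.9, 11.5 and 10.7 at day 0, 18.2, 25.5 and 30.6 at day 3, 13.5, 10.98 and 15.8 at day 7 and 17.3, 16.5 and 15.97 at day 30. Every day 3 library exceeded every other library. The rise from day 0 to day 3 was 1.83-fold (log2 0.87 ± 0.22, adjusted p = 0.00469), and by day 7 the level had fallen by 0.82 ± 0.22 on the log2 scale from day 3 (adjusted p = 0.00675). Both calls held under every alternative. Of the merged exon length of Ddit3, 10.9% overlaps another gene model, including Mars on the opposite strand. The strand of the counting is not given in the sources used here, and whether the 2 genes share reads was not tested. Mars as a whole, which does not measure the overlapping stretch, did not pass the test at day 3 (-0.21 ± 0.18, adjusted p = 0.368).

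Atf4 (chr15:80255184-80257541, plus strand), the central transcription factor, was the most abundant of the 3 per kb of exon, at a mean of 42.4 signal per kb against 9.90 for Ddit3 and 2.55 for Sesn2. Its signal was 122, 92.5 and 79.7 at day 0, 93.5, 114 and 116 at day 3, 80.4, 60.8 and 72.5 at day 7 and 128, 119.6 and 121 at day 30. The day 3 values lay within the day 0 range, and the difference was 0.15 ± 0.17 (log2, adjusted p = 0.477). The day 7 mean was the lowest, although the first day 7 library, at 80.4, lay above the lowest day 0 library, at 79.7. Atf4 fell by 0.59 ± 0.17 from day 3 to day 7 (adjusted p = 0.00877). From day 7 to day 30 it rose by 0.78 ± 0.17 (adjusted p = 0.00220). The fall did not pass with quantile normalisation (-0.25, adjusted p = 0.181) or under the scaling to the library total given above (-0.39, adjusted p = 0.0559, beside a median of 0.22 for all genes); the lowest adjusted p of its alternatives was 0.00182. The rise had an adjusted p of 0.0928 with the day 30 libraries counted as 1 sample, the highest of its alternatives, which began at 5.98e-05. Against day 0 the change was -0.44 ± 0.17 at day 7 (adjusted p = 0.0695) and 0.34 ± 0.17 at day 30 (adjusted p = 0.240).

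The enzymes did not move together. Mthfd2 and Shmt2 both act in the mitochondrial one-carbon pathway that starts from serine, and they changed in opposite directions at day 3. Mthfd2 signal was 3.83, 1.57 and 1.99 at day 0, 5.46, 6.61 and 7.28 at day 3, 2.57, 4.97 and 3.51 at day 7 and 3.59, 3.53 and 4.94 at day 30. The day 3 libraries were the 3 highest of the 12, and the rise from day 0 was 2.22-fold (log2 1.15 ± 0.28, adjusted p = 0.00366). Shmt2 signal was 14.7, 11.01 and 14.5 at day 0, 6.04, 8.03 and 5.16 at day 3, 11.7, 24.97 and 15.05 at day 7 and 8.11, 5.65 and 8.81 at day 30. Its day 3 values lay below all day 0 and day 7 values. Shmt2 fell by 0.96 ± 0.26 at day 3 (adjusted p = 0.00801) and was 1.25 ± 0.26 higher at day 7 than at day 3 (adjusted p = 0.00138). These 3 calls held under every alternative that tested them. With the filter at a mean signal of 5, Mthfd2 was not tested.

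From day 7 to day 30 Shmt2 fell by 1.05 ± 0.26 (adjusted p = 0.00645), a call that ended with the day 30 libraries counted as 1 sample (adjusted p = 0.127, in a range over the alternatives from 0.000887). The day 7 peak was in the second library, whose fibroblast marker sum was 2318, against 818 and 591 in the other two. Its cardiomyocyte marker sum was also the highest of day 7, at 213, and those markers, like Shmt2, were higher at days 0 and 7 than at days 3 and 30; their part in the Shmt2 level was not tested. Without that library the rise from day 3 was 0.96 (adjusted p = 0.00471) and the fall to day 30 was -0.76 (adjusted p = 0.0262). Psat1, an enzyme of serine synthesis, was also highest in that library, with 11.7, 20.6 and 11.7 at day 7, against 11.2, 13.6 and 15.03 at day 0, 8.72, 18.4 and 13.5 at day 3 and 9.83, 9.33 and 9.001 at day 30. Its groups overlapped at days 0, 3 and 7, it was called in none of the comparisons, and the part of fibroblast RNA in its level was not tested.

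Asns, the asparagine synthetase whose promoter stretch is shown above, was near the limit of detection. Its signal was 0, 1.05 and 1.27 at day 0 (0, 10 and 7 reads), 2.20, 2.01 and 1.46 at day 3 (23, 17 and 11 reads), 0.303, 0.347 and 0.438 at day 7 (2, 3 and 3 reads) and 0.780, 1.13 and 0.887 at day 30 (10, 8 and 14 reads). The day 3 libraries held the 3 highest values and the day 7 values were at or near the floor of 3 reads, which corresponds to a signal of 0.190 to 0.543 depending on the library and covers counting error only.

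**Figure D3:**
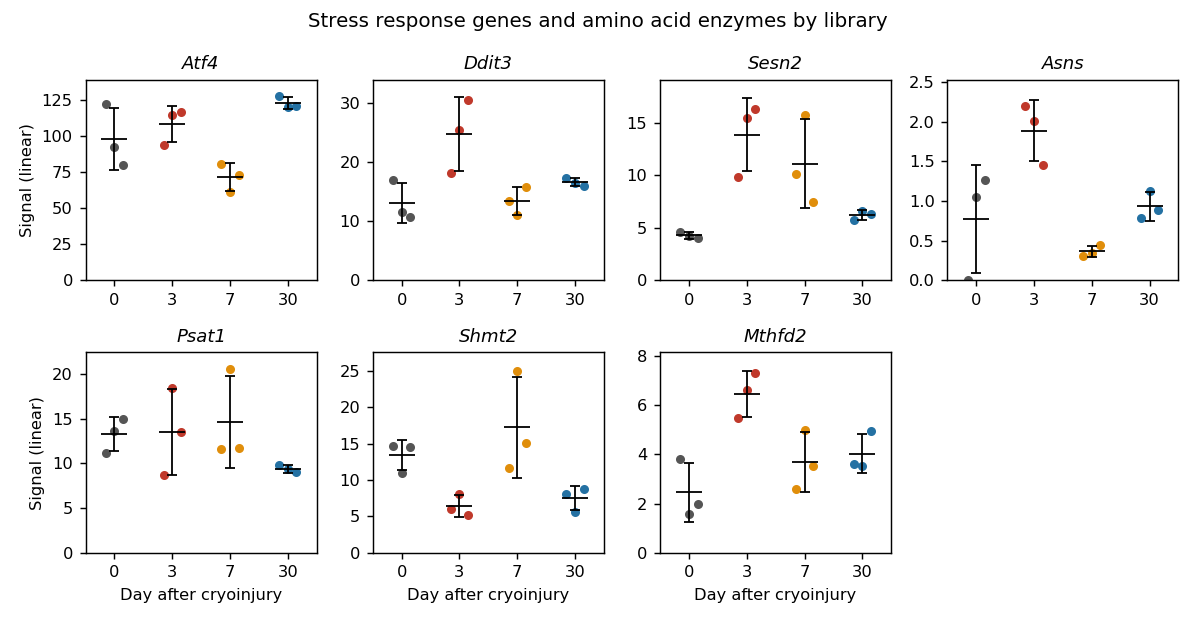
Signal (y axis, linear) of the 3 stress response genes and 4 enzymes in each library by day after cryoinjury (x axis). Points are libraries, horizontal bars are means and error bars are SD over 3 libraries; Ddit3 and Mthfd2 peak at day 3, Sesn2 is above its day 0 level of 3.98 to 4.62 at each later time, and the second day 7 library is high in Shmt2, Psat1 and Sesn2.

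Of the 20 cytoplasmic synthetases, 2 rose (Rars, Tars) and 1 fell (Iars) at day 3, a share called of 15% against 44.2% of all genes. The other 17 did not pass the test, and the median log2 fold change of the 20 was 0.08. Rars (chr11:35808381-35834506, minus strand), the arginyl-tRNA synthetase, had the largest change among the called synthetases over the 5 comparisons. Its signal was 37.6, 29.5 and 26.1 at day 0, 83.4, 84.5 and 88.6 at day 3, 35.1, 28.1 and 34.6 at day 7 and 33.8, 34.1 and 41.8 at day 30. The day 3 values were separated from the other 9 libraries by a wide gap. The mean went from 31.1 ± 5.93 (SD, n = 3) at day 0 to 85.5 ± 2.69 at day 3, a 2.73-fold rise (log2 1.45 ± 0.16, adjusted p = 3.67e-06 by limma). From day 3 to day 7 Rars fell by 1.37 ± 0.16 (adjusted p = 9.96e-06). Both calls held under every alternative, with log2 values between 1.16 and 1.59 for the rise.

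Iars (chr13:49682100-49734267, plus strand), the isoleucyl-tRNA synthetase, took the opposite course. Its signal was 50.9, 45.8 and 39.7 at day 0, 29.4, 27.7 and 24.8 at day 3, 39.1, 43.2 and 43.7 at day 7 and 41.6, 53.4 and 46.7 at day 30. All day 3 values lay below all others. It fell by 0.71 ± 0.15 at day 3 (adjusted p = 0.00139) and rose by 0.60 ± 0.15 to day 7 (adjusted p = 0.00453), and both calls held under every alternative. Rars and Iars belong to the multisynthetase complex, a cytoplasmic assembly of several synthetases and scaffold proteins. Of its 11 genes tested, Rars and Iars were the 2 called at day 3 (18.2%, against 44.2% of all genes). Tars, the threonyl-tRNA synthetase, was 12.5 ± 4.998 at day 0 and 19.7 ± 0.779 at day 3 (0.68 ± 0.22, adjusted p = 0.0202). Its call ended without the second or the third day 0 or the second or the third day 3 library, with adjusted p of 0.0536 to 0.104, in a range of 0.000111 to 0.132 over all alternatives.

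Genes with a TGATGNAA match in their promoter window did not share a direction. Of the 5 cytoplasmic synthetases shown above, Tars rose and Iars fell at day 3. Asns, the enzyme gene with a match, had its highest values at day 3 and was not tested. Gars, the glycyl-tRNA synthetase, was 23.4 ± 1.94 at day 0 and 29.5 ± 4.83 at day 3 (0.31 ± 0.16, adjusted p = 0.121). The alanyl- and tyrosyl-tRNA synthetase genes Aars and Yars differed by 0.08 ± 0.18 (adjusted p = 0.737) and -0.16 ± 0.16 (adjusted p = 0.424). Aars had its highest mean at day 3 (33.4 ± 3.18) and its lowest at day 30 (20.2 ± 1.56), all day 30 values of 18.4 to 21.2 lying below the day 0 range of 27.4 to 41.0. Day 30 against day 0 did not pass the test (-0.62 ± 0.18, adjusted p = 0.0505). No promoter window was matched for Rars.

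At day 7, Sars and Qars, for serine and glutamine, were higher than at day 0. Sars signal was 17.2, 18.2 and 17.2 at day 0, 14.6, 19.95 and 17.7 at day 3, 23.3, 29.0 and 27.9 at day 7 and 15.1, 14.6 and 16.04 at day 30. The 3 day 7 libraries held the highest values of the 12. The change was 0.58 ± 0.17 from day 0 (adjusted p = 0.0228), 0.60 ± 0.17 from day 3 (adjusted p = 0.00850) and -0.77 ± 0.17 from day 7 to day 30 (adjusted p = 0.00242). The call from day 3 ended with those 2 groups fitted alone (adjusted p = 0.0559, from 0.000881 at the lowest), and that to day 30 with the day 30 libraries counted as 1 sample (adjusted p = 0.107, from 0.000137). Qars was 26.9 ± 3.13 at day 0 and 41.2 ± 5.80 at day 7 (0.59 ± 0.15, adjusted p = 0.0127), and fell by 0.58 ± 0.15 to day 30 (adjusted p = 0.00782, and 0.177 with day 30 as 1 sample, from 0.00107 at the lowest). Without the first or the third day 0 library the Sars call from day 0 ended (adjusted p = 0.0560 and 0.0629). The Qars call ended without the third (adjusted p = 0.0503). The count of members called at day 7 against day 0 was 2 without the first (17.2% of all genes) and 2 without the third day 0 library (14.5%). Over all alternatives the adjusted p of the day 7 rise from day 0 ran from 0.0111 to 0.115 for Sars and from 0.00237 to 0.0982 for Qars.

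Kars (chr8:111993443-112011323, minus strand), the lysyl-tRNA synthetase of both compartments, was lower at day 30. Its signal was 29.2, 30.5 and 35.1 at day 0, 28.4, 32.2 and 31.0 at day 3, 28.8, 29.4 and 34.9 at day 7 and 17.3, 17.5 and 15.8 at day 30. The 9 libraries of days 0, 3 and 7 lay between 28.4 and 35.1 and overlapped, and the day 30 libraries lay well below them. The fall was 0.55-fold against day 0 (log2 -0.86 ± 0.15, adjusted p = 0.00399) and -0.84 ± 0.15 against day 7 (adjusted p = 0.000751). Each call ended under 1 alternative, the day 30 libraries counted as 1 sample (adjusted p = 0.362 and 0.0624, from 7.26e-06 and 2.52e-06 at the lowest).

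Wars, the tryptophanyl-tRNA synthetase, is known as an interferon-gamma target. Its signal was 18.7, 15.1 and 21.01 at day 0, 15.3, 22.4 and 28.1 at day 3, 17.7, 33.2 and 21.03 at day 7 and 13.5, 14.8 and 14.1 at day 30. The day 0, day 3 and day 7 ranges overlapped, and the difference at day 3 was 0.22 ± 0.24 (adjusted p = 0.479). Of 14 interferon response genes, 12 rose at day 3 with a median log2 fold change of 3.54, beside 22.1% of all genes, among them Rsad2 (6.01 ± 0.23), and Eif2ak2, the interferon-induced eIF2 kinase PKR, rose by 1.84 ± 0.19. From day 7 to day 30 Wars fell by 0.68 ± 0.24 (adjusted p = 0.0375). That call ended without the second day 7 library (-0.43, adjusted p = 0.157) and without any 1 of the day 30 libraries, and its adjusted p reached 0.279 over the alternatives with day 30 as 1 sample, from 0.0161.

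Eprs, the bifunctional synthetase for glutamate and proline, was lowest at day 7 and highest at day 30. It was 62.9 ± 7.06 at day 3, 44.3 ± 10.7 at day 7 and 67.4 ± 0.923 at day 30, and fell by 0.52 ± 0.17 from day 3 to day 7 (adjusted p = 0.0221) and rose by 0.63 ± 0.17 from day 7 to day 30 (adjusted p = 0.0105). The second day 7 library was the lowest at 32.6, and without it the fall was 0.32 in size (-0.32, adjusted p = 0.0625); it also ended without the first or the third day 3 library (adjusted p up to 0.0762, and 0.00591 to 0.181 over all alternatives). The rise had an adjusted p of 0.183 with the day 30 libraries counted as 1 sample, from 0.00289. Hars fell (-0.51 ± 0.18, adjusted p = 0.0273) and Farsb rose (0.45 ± 0.17, adjusted p = 0.0376) from day 3 to day 7. The Hars call ended without the first or second day 3 or the first day 7 library (adjusted p up to 0.103, and 0.00626 to 0.140 over all alternatives). The Farsb call ended without any 1 of the day 3 or day 30 libraries and without the first or the third of day 7 (adjusted p up to 0.113, and 0.00224 to 0.124 over all alternatives). From day 7 to day 30 Farsb fell by 0.46 ± 0.17 (adjusted p = 0.0397), a call that ended without the third day 3, the first or the third day 7 or any 1 of the day 30 libraries (adjusted p up to 0.120) and with day 30 as 1 sample (0.308, from 0.00327 at the lowest). Aars, Cars, Dars, Farsa, Gars, Lars, Mars, Nars, Vars and Yars were called in none of the comparisons.

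Of the 16 mitochondrial synthetases, 1 rose (Rars2) and 1 fell (Mars2) at day 3 (12.5%, against 44.2% of all genes), with a median of -0.18. Rars2 (chr4:34614957-34660167, plus strand) charges the mitochondrial arginine tRNA. Its signal was 4.88, 4.51 and 5.07 at day 0, 10.2, 9.09 and 8.34 at day 3, 5.90, 3.93 and 4.67 at day 7 and 8.89, 7.77 and 10.1 at day 30. The day 3 and day 30 libraries lay above all day 0 and day 7 libraries. The rise at day 3 was 1.75-fold (log2 0.81 ± 0.21, adjusted p = 0.00498) and the fall to day 7 was -0.81 ± 0.21 (adjusted p = 0.00460), and both held under every alternative. Of the 13 amino acids whose cytoplasmic and mitochondrial synthetase symbols differ only by a final 2, arginine was the only 1 with both genes called in the same direction at day 3.

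At day 30 Rars2 was 0.77 ± 0.21 above day 0 (adjusted p = 0.0394) and 0.77 ± 0.21 above day 7 (adjusted p = 0.00854). The difference from day 0 ended without any 1 of 8 libraries, which were all those of days 0 and 30 and the second and the third of day 3, with adjusted p of 0.0542 to 0.192. It was 0.738 with the day 30 libraries counted as 1 sample, and 0.0117 at the lowest over the alternatives. Without any 1 of those 8 libraries the count of members called at day 30 against day 0 was 1, beside 1.82% to 7.42% of all genes. The count was 3, 4 and 3 without the first, second and the third day 7 library, beside 7.67%, 15.5% and 6.92%. The difference from day 7 ended without the third day 30 library (adjusted p = 0.0515) and with day 30 as 1 sample (0.174), and was 0.00370 at the lowest.

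Mars2, the mitochondrial methionyl-tRNA synthetase, had signals of 4.88, 3.35 and 3.98 at day 0, 1.53, 2.60 and 1.46 at day 3, 3.03, 1.39 and 1.17 at day 7 and 3.35, 2.97 and 2.35 at day 30. The day 0 values lay above those of days 3 and 7, and the lowest day 0 and the highest day 30 value were both 3.35. It fell by 0.84 ± 0.29 at day 3 (adjusted p = 0.0263) and by 0.87 ± 0.29 at day 7 (adjusted p = 0.0403). The first call ended without the first or the third library of day 0 or of day 3 (adjusted p of 0.0568 to 0.0918, and 0.00823 to 0.163 over all alternatives). The second ended without any 1 of 8 libraries, all those of days 0 and 30 and the second and the third of day 7 (adjusted p of 0.0558 to 0.114, and 0.00995 to 0.191 over all alternatives).

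Yars2 and Vars2, for mitochondrial tyrosine and valine, changed between the later times. Yars2 signal was 6.47, 5.56 and 5.98 at day 0, 6.32, 2.48 and 3.44 at day 3, 4.24, 2.54 and 5.11 at day 7 and 7.41, 8.76 and 7.80 at day 30. All day 30 values were above all others, and the rise from day 7 was 0.89 ± 0.28 (adjusted p = 0.0208). Vars2 signal was 2.24, 2.52 and 1.81 at day 0, 1.72, 2.48 and 1.99 at day 3, 3.18, 6.24 and 3.51 at day 7 and 2.03, 1.41 and 2.28 at day 30. The day 7 values were the highest, with the second library far above the other two; Vars2 rose by 0.76 ± 0.27 from day 3 (adjusted p = 0.0302) and fell by 0.84 ± 0.27 to day 30 (adjusted p = 0.0227).

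Without the second day 7 library the Yars2 rise was 0.66 (adjusted p = 0.0817), and the Vars2 changes were 0.51 (adjusted p = 0.117) and -0.59 (adjusted p = 0.0923), so that the 3 calls ended. The Yars2 call also ended without the second or the third day 30 library. The Vars2 rise also ended without the first or the third day 3 library, and its fall without the first or the second day 30 library. Over all alternatives the adjusted p ran from 0.0102 to 0.229 for Yars2, and from 0.0114 to 0.190 and 0.0147 to 0.240 for Vars2, the values of 0.229 and 0.240 being those with day 30 as 1 sample. Of the merged exon length of Vars2, 8.52% overlaps another gene model. Fars2 fell (-0.66 ± 0.22, adjusted p = 0.0248) and Wars2 rose (0.57 ± 0.21, adjusted p = 0.0444) from day 7 to day 30, and both calls ended without the second day 7 library (adjusted p = 0.0670 and 0.122) and without any 1 of the day 30 libraries. The Wars2 call also ended without the second day 0, the second or the third day 3 or the third day 7 library (adjusted p up to 0.130). Over all alternatives the adjusted p ran from 0.0149 to 0.259 for Fars2 and from 0.0201 to 0.329 for Wars2, the highest of each with day 30 as 1 sample. The other 10 mitochondrial synthetases were called in none of the comparisons.

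**Figure D4:**
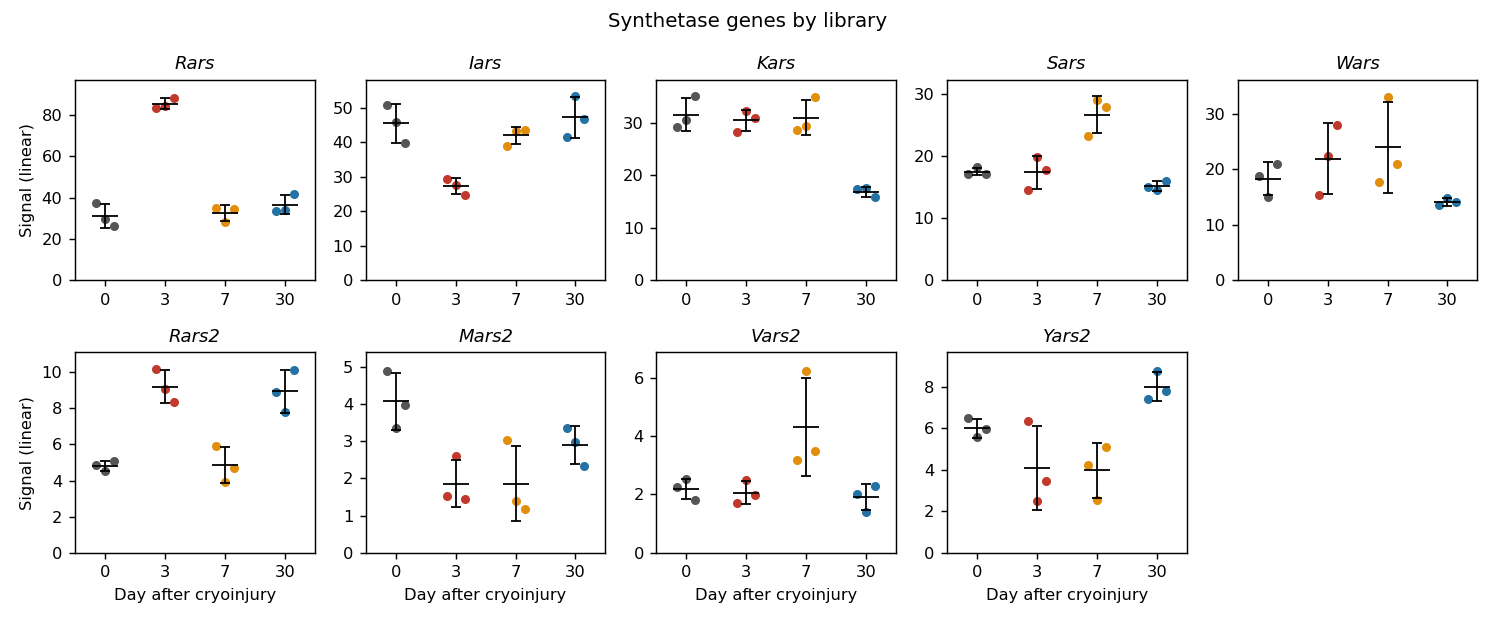
Signal (y axis, linear) of 5 cytoplasmic (top) and 4 mitochondrial (bottom) synthetase genes in each library by day after cryoinjury (x axis). Points are libraries, horizontal bars are means and error bars are SD over 3 libraries; Rars stands at 83.4 to 88.6 at day 3 against 26.1 to 41.8 elsewhere, Iars is lowest at day 3, Sars is highest at day 7 and Kars is lowest at day 30.

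Per kb of exon, the cytoplasmic synthetases had a median mean signal of 5.29 per kb, from 1.24 for Cars to 28.6 for Nars, and the mitochondrial synthetases one of 0.690, from 0.237 for Mars2 to 2.82 for Hars2. Summed per kb over the 20 genes, the cytoplasmic level was 131 ± 12.9 (SD, n = 3) at day 0, 153 ± 4.77 at day 3, 135 ± 6.96 at day 7 and 120.5 ± 3.54 at day 30. The day 3 libraries, at 148 to 158, lay above all others, of which the first day 0 library came closest at 146. With the scaling to the library total without mitochondrial and rRNA-like genes, this order did not hold: the cytoplasmic sum was 141 ± 7.65 at day 0, 134 ± 3.36 at day 3, 137 ± 10.03 at day 7 and 128 ± 3.18 at day 30, with overlapping ranges at days 0, 3 and 7. Summed over the 16 genes, the mitochondrial level was 17.8 ± 0.632 at day 0, 16.3 ± 1.49 at day 3, 15.8 ± 1.55 at day 7 and 20.7 ± 0.973 at day 30. The day 30 libraries, at 19.96 to 21.8, lay above all others, as they did with that other scaling, at 21.2 to 23.1 against at most 20.2; these libraries were the closely alike ones. From day 7 to day 30, the median log2 fold change was 0.34 for the 16 mitochondrial synthetases, of which 14 were positive. It was -0.25 for the 20 cytoplasmic synthetases and 0.01 over all genes tested. By the test, 3 mitochondrial synthetases rose and 2 fell (31.2%), and 1 cytoplasmic synthetase rose and 5 fell (30%). Of all genes, 39.6% were called, 19.7% higher and 19.9% lower. These sums and medians were not tested.

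**Figure D5:**
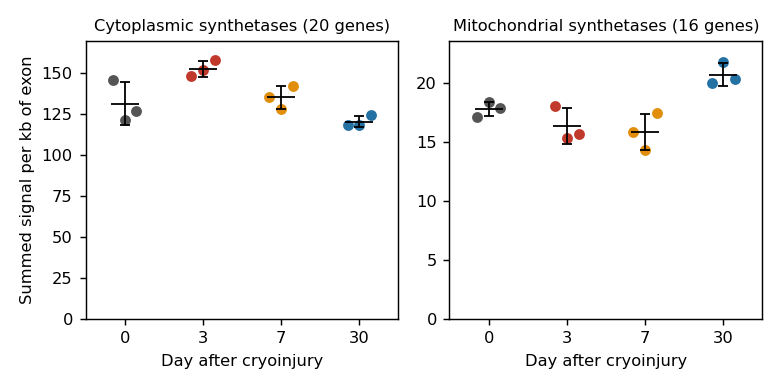
Summed signal per kb of exon (y axis) of the 20 cytoplasmic (left) and 16 mitochondrial (right) synthetase genes in each library by day after cryoinjury (x axis). Points are libraries, horizontal bars are means and error bars are SD over 3 libraries; on this scaling the cytoplasmic sum is highest at day 3 (148 to 158), an order that the scaling to the library total does not keep, and the mitochondrial sum at day 30 (19.96 to 21.8).

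Other genes of the response were read from lists. Of 14 genes for eIF2 kinases, phosphatase subunits and the eIF2 and eIF2B subunits, 5 rose and 1 fell at day 3 (median 0.21), a share called of 42.9% against 44.2% of all genes. The kinase genes Eif2ak3 (PERK) and Eif2ak4 (GCN2), which sense misfolded protein and uncharged tRNA, were not among them, at -0.40 ± 0.20 (adjusted p = 0.119) and -0.11 ± 0.20 (adjusted p = 0.676). Eif2s1, the eIF2 subunit that the kinases phosphorylate, rose by 0.92 ± 0.16. Ppp1r15a (GADD34), the inducible subunit of the phosphatase that reverses this step, fell by 0.78 ± 0.24 at day 3 and by 1.12 ± 0.24 at day 7. Of 16 partners and other targets of ATF4, 5 rose and 4 fell at day 3 (median -0.13), a share called of 56.2% against the same 44.2%. Atf3 rose by 2.21 ± 0.42 and Cebpb by 2.19 ± 0.19, while Gpt2, an alanine aminotransferase, fell by 2.02 ± 0.35 and Herpud1, a factor of endoplasmic reticulum degradation, by 1.52 ± 0.19.

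Of 8 amino acid transporter genes tested, 5 rose and 0 fell at day 3, with a median of 0.73, beside 22.1% of all genes in each direction. Slc7a11, the cystine-glutamate exchanger, went from 5.75 ± 0.996 to 40.5 ± 5.44 (log2 2.62 ± 0.21, adjusted p = 8.34e-08), and its partner chain Slc3a2 from 82.7 ± 10.7 to 190.1 ± 27.0 (1.19 ± 0.16, adjusted p = 2.96e-05). Of 12 genes of the unfolded protein response, 7 rose and 1 fell at day 3 (median 0.47, beside 22.1% of all genes in each direction), among them the chaperone Hspa5 (1.36 ± 0.26). At day 7 against day 3, 9 of the 12 fell and 0 rose, beside 23.5% of all genes lower and 23.3% higher, and Hspa5 fell by 2.12 ± 0.26. Of 13 genes of mitochondrial translation and proteostasis, 3 rose and 1 fell at day 3, a share called of 30.8% against 44.2% of all genes. At days 7 and 30 against day 0, 0 of these 13 were called by limma, beside 21.6% and 6.18% of all genes, with 2 at an unadjusted p of 0.05 in each comparison.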

How the data were processed

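RNA sequencing covered 12 libraries, 3 for each of 4 times. Named in the submitters' processing notes are cutadapt 1.3, RSEM 1.2.20 and edgeR 3.14.0, and GRCm38 as build. The deposited signal is a linear read count per gene that the authors scaled for library size and composition, judged from the values; every value was a whole number of reads within 0.02 reads after division by the library's smallest step, so depth and reads were recovered. The strand used in counting is not given in the sources used here.

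Genes were tested where their mean signal reached 1, on log2(signal + 1) with limma 3.58.1 in R 4.3.3 (variance trend, 4 group means over all 12 libraries, two-sided, Benjamini-Hochberg adjustment over 12879 genes within each comparison, threshold 0.05). The script was tested on simulated data. Alternatives changed the pseudocount, the filter, the scaling and the libraries, or ran edgeR 4.0.16 and DESeq2 1.42.0 on the recovered reads. Each was fitted and adjusted over all genes that passed its filter, and calls of single genes were then read for the members alone. Scaling to the library total without mitochondrial genes, Gm26924 and Lars2 was added after seeing the data.

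The members, lists, motifs and rules were chosen with earlier results of these data known. Named with values in every library were the stress response and enzyme members, the 4 called synthetases of each kind with the largest change, and Wars; other calls are named with their means or changes, and of other lists up to 4 called genes by size of change, with Eif2ak3, Eif2ak4 and Eif2s1 named for their roles after their values were seen. Gene positions and overlaps are from GENCODE M21 (GRCm38), which held all 43 members, of which 16 share exon sequence with another gene. The values of 1 member are counted in totals and not reported here by name. Signal per kb divides by merged exon length.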

Additional observations from a re-analysis of the deposited data

How the results depend on the processing

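Of 40 member calls in the 5 comparisons, 13 held in every alternative testing them, 27 ended in at least 1 and 0 reversed. Among the 13 were Ddit3, Iars, Rars, Rars2 and Shmt2 at day 3 against day 0 and day 7 against day 3. The rest were Sesn2 at days 3 and 7 and Mthfd2 at day 3, all against day 0. Mthfd2 did not reach the alternative filter of a mean signal of 5 and was not tested there. With the compared groups fitted alone, 1 member was called at day 7 against day 0, beside 8.99% of all genes. Such fits called 5 at day 30 against day 0 (20.8% of all genes) and 6 at day 7 against day 3 (36.0%). Without the first day 0 and second day 7 library together, 8 were called at day 30 against day 0 (19.5% of all genes) and 8 against day 7 (34.7%). With the day 30 libraries counted as 1 sample, 2 were called at day 7 against day 0, 7 at day 7 against day 3, 0 at day 30 against day 0, 0 at day 30 against day 7 and 9 over the 4 groups. Scaled to the library total without mitochondrial and rRNA-like genes, 14 were called at day 3 against day 0 (5 higher, 9 lower), beside 46.9% of all genes. That scaling gave 7 higher and 3 lower at day 7 against day 3 (47.8%), and 3 higher and 2 lower at day 7 against day 0 (22.6%). The same scaling moved the median of all genes to 0.22 at day 7 against day 3. Median centring gave 3 higher and 8 lower at day 7 against day 3 (46.5% of all genes). With it, 5 were higher and 6 lower at day 30 against day 7 (40.6%). Quantile normalisation gave 7 higher and 2 lower at day 3 (40.3% of all genes), and 1 higher and 2 lower at day 30 against day 0 (7.94%). Leaving out each library in turn, the count against day 0 ran from 7 to 12 at day 3, beside 36.1% to 52.4% of all genes. It ran from 2 to 6 at day 7 (14.5% to 25.9%) and from 1 to 4 at day 30 against day 0 (1.82% to 15.5%). The count ran from 7 to 13 at day 7 against day 3 (39.0% to 48.3%). From day 7 to day 30 it ran from 7 to 14 (27.0% to 42.7%), and over the 4 groups from 12 to 21 (54.9% to 65.8%). edgeR and DESeq2 on recovered reads each kept 39 of the 40 calls. The share of all genes called moved between these settings too, and why the counts moved was not tested. Whether replicate numbers pair the libraries is not settled by these values. Across genes, same-numbered libraries had deviations with a median correlation of 0.00490 in 18 pairs (-0.0831 to 0.210). In the 36 pairs with other numbers it was -0.00690 (-0.231 to 0.195). With the replicate block, 9, 4, 2, 11, 14 and 17 members were called in these comparisons, and each of the 40 calls held. Genes of low signal, such as Mars2, Vars2 and Asns, rest on few reads.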

Other observations

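Of the 13 pairs of cytoplasmic and mitochondrial synthetase genes for the same amino acid, 1 pair had both genes called in the same direction at day 3 against day 0 (Rars and Rars2, both higher) and the same pair did so at day 7 against day 3 (both lower). From day 7 to day 30 the tryptophan pair was called in opposite directions, with Wars at -0.68 ± 0.24 and Wars2 at 0.57 ± 0.21 by limma, calls that both ended without the second day 7 library. In the other pairs of this form at most 1 gene was called in each of the 5 comparisons, and 5 to 8 of the 13 pairs had fold changes of the same sign. Phenylalanine (Farsa, Farsb, Fars2), glutamate (Eprs, Ears2) and proline (Eprs, Pars2), whose genes are named otherwise, were left out of these pairs. Of them, Farsb and Fars2 both fell from day 7 to day 30 (-0.46 ± 0.17 and -0.66 ± 0.22, adjusted p = 0.0397 and 0.0248 by limma). Both calls ended without any 1 of the day 30 libraries.

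Hars and Hars2, whose exons overlap over 7.97% and 4.56% of their length, may share reads. Hars was 19.4 ± 2.50 at day 0 and 26.5 ± 1.77 at day 3 (0.43 ± 0.18, adjusted p = 0.0584 by limma), and Hars2 was not called in any comparison. The interferon-stimulated response element occurred on either strand in the promoter window of Qars among the 33 members with a window, against 3.44% of all windows, and no window was matched for Wars.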
